A study of Rattus norvegicus with 6 samples.

Results

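Mast cell genes were followed in bulk RNA-seq of rat tongue tissue by way of 9 genes, taken by name for their known roles in mast cells. They were the granule protease genes Cpa3, Tpsab1, Tpsb2 and Cma1, the receptor genes Kit, Ms4a2 and Fcer1a, the histamine synthesis gene Hdc and the transcription factor gene Gata2. They were chosen with earlier results of these data known. All 9 were found among the 14405 protein-coding genes listed in each library, and each name matched 1 row. The samples fell into 3 control libraries, taken from rats that had no periodontitis, and 3 libraries of the chronic periodontitis group. Chronic periodontitis is a lasting inflammation of the tissue that holds the teeth. The tissue is labelled as dorsal tongue epithelium and, for the series, as circumvallate papilla, the taste bud structure at the back of the tongue. Strain, age, sex, the way periodontitis was brought about and whether each library is 1 animal are not stated in the labels. The p-values therefore reflect how far these libraries scatter, which can be technical in part.

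Mast cells are long-lived immune cells of connective tissue and mucosa that lie beside vessels, nerves and epithelium. They depend on the growth factor receptor Kit, carry antibody of the IgE class on a receptor built from the products of Fcer1a, Ms4a2 and Fcer1g, and store histamine and proteases in granules. Rodent mast cells of connective tissue and of mucosa are known to store different proteases, with tryptases, carboxypeptidase and Cma1-type chymase typical of connective tissue.

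The values are FPKM, fragment numbers scaled by transcript length and library size, so levels can be compared between genes. Between libraries they compare only as shares, which move when abundant genes change. Listed genes of the von Ebner gland summed to 160514 to 186397 FPKM in controls. In periodontitis 1 to 3 they summed to 96003.5, 144388 and 269247 FPKM. All listed genes summed to between 611713 and 660619 FPKM per library, and the depth behind the values is unknown. Periodontitis 1 and periodontitis 3 stood apart from the other libraries. They had 218 and 174 genes listed at 0, against 72 to 124 in the controls and 71 in periodontitis 2. On the log2(FPKM + 1) scale, the median deviation from the control mean over a list of surface epithelium genes was 0.97 in periodontitis 1 and -0.83 in periodontitis 3, and that of von Ebner gland genes was -0.82 and 0.57. The values of the 9 genes are therefore given by library.

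In the controls Kit had the highest level of the 9 genes, with a mean of 23.6 FPKM, followed by Cpa3 with 13.8 FPKM and Cma1 with 8.40 FPKM. The control ranges of these 3 genes did not overlap one another, and Cma1 lay above Tpsb2 (3.01 FPKM) in every control. From Tpsb2 downward the order was Fcer1a (2.67 FPKM), Gata2 (1.87 FPKM), Tpsab1 (1.46 FPKM), Ms4a2 (1.18 FPKM) and Hdc (0.542 FPKM), and each neighbouring pair in it had overlapping control ranges. Ranked by mean level over the 6 libraries, Kit lay at percentile 77.4 of all listed genes, Cpa3 at 60.4 and Cma1 at 46.0, whereas Tpsb2, Fcer1a, Gata2, Ms4a2, Tpsab1 and Hdc lay between percentiles 2.43 and 21.0.

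The label of the gene set was checked against further mast cell genes. Mcpt1l1, listed in RefSeq with the older name rMCP-1 (rat mast cell protease 1, a connective tissue mast cell chymase), was the most abundant mast cell protease measured. It had 29.7, 27.8 and 15.7 FPKM in controls 1 to 3. Mcpt2, whose name stands for the chymase of mucosal mast cells, had 1.22, 0.164 and 0.139 FPKM in controls 1 to 3. It was listed at 0 in periodontitis 1 and had 0.114 and 0.415 FPKM in periodontitis 2 and 3. Mcpt1l1, Cpa3 and Cma1, all typical of connective tissue mast cells, thus had higher levels than Mcpt2 in every library. Reads of near-identical chymase genes on chromosome 15 can be divided between copies, so single values of Mcpt1l1, Mcpt2 and Mcpt8l2 are uncertain. Kit, Gata2 and Fcer1a are also used by other cells, such as melanocytes (Kit), endothelium (Gata2) and dendritic cells (Fcer1a). Of 7 melanocyte markers 2 were listed. Sox10, a factor that melanocytes share with Schwann cells, had a control mean of 16.6 ± 3.24 FPKM and a periodontitis mean of 15.4 ± 10.8 FPKM (SD over 3 libraries), with overlapping groups, the lowest value in periodontitis 1 and the highest in periodontitis 3 (log2 fold change -0.34). The pigment cell gene Pmel had between 0.465 and 0.999 FPKM.

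The 4 granule protease genes had lower means in periodontitis than in control tissue, with log2 fold changes between -0.82 and -0.69, and none passed the test. The difference lay mainly in periodontitis 1 and, to a smaller extent, in periodontitis 3, while periodontitis 2 had control levels of Cpa3, Tpsb2 and Cma1. In limma over 13154 tested genes, 0 genes (0%) had an adjusted p under 0.05 in either direction, and 278 had an unadjusted p under 0.05, of which 228 were lower in periodontitis (1.73% of genes tested). That split changed with the scaling, to 192 lower of 305 with quantile normalization and 119 lower of 182 after rescaling without 4 abundant gland genes. Of the mast cell genes, 8 were tested and 1, Tpsab1, was among those 228.

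Cpa3 encodes mast cell carboxypeptidase A3, which trims peptides from their carboxyl end, and lies on chromosome 2 (105016626 to 105047984, minus strand). It had 16.5, 15.1 and 9.78 FPKM in controls 1 to 3 and 3.80, 12.8 and 8.87 FPKM in periodontitis 1 to 3. Periodontitis 1 was the lowest library, periodontitis 3 lay just below the lowest control and periodontitis 2 lay within the control range. The means were 13.8 ± 3.53 and 8.50 ± 4.52 FPKM (SD, n = 3 each), with a log2 fold change of -0.74 ± 0.39 (SE, limma adjusted p = 1.0). Without periodontitis 1 it was -0.31, and without periodontitis 2 it was -1.07 (unadjusted p = 0.0298, limma adjusted p = 0.968).

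Cma1, on chromosome 15 (34601037 to 34603819, minus strand), encodes a chymase, also known as Mcpt5. It had 9.38, 7.94 and 7.88 FPKM in controls 1 to 3 and 1.52, 8.16 and 5.47 FPKM in periodontitis 1 to 3. The 3 controls lay close together, periodontitis 1 and 3 lay below all of them, and periodontitis 2 lay among them. The means were 8.40 ± 0.850 and 5.05 ± 3.34 FPKM (SD, n = 3 each), and the log2 fold change was -0.82 ± 0.44 (SE, limma adjusted p = 1.0), or -0.28 without periodontitis 1 and -1.21 without periodontitis 2 (unadjusted p = 0.0240, limma adjusted p = 0.957).

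Tpsb2 and Tpsab1 encode tryptases, trypsin-like proteases stored in granules and also known as Mcpt6 and Mcpt7. They are neighbours on chromosome 10 on opposite strands, Tpsab1 at 14701253 to 14703668 (minus) and Tpsb2 at 14722756 to 14724600 (plus), with 19087 bases between them. The genes are close copies, so reads shared by both can be divided between them and their values are uncertain one by one. Tpsb2 had 2.87, 3.39 and 2.76 FPKM in controls 1 to 3 and 0.560, 2.98 and 1.40 FPKM in periodontitis 1 to 3. Periodontitis 2 lay within the control range, and periodontitis 1 and 3 lay below it. The log2 fold change was -0.70 ± 0.34 (SE, limma adjusted p = 1.0), or -0.37 without periodontitis 1 and -1.05 without periodontitis 2 (unadjusted p = 0.00690, limma adjusted p = 0.957). With a pseudocount of 0.1 in place of 1 it was -1.09.

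Tpsab1 had 1.36, 1.94 and 1.08 FPKM in controls 1 to 3 and 0.128, 0.741 and 0.759 FPKM in periodontitis 1 to 3. It was the 1 gene of the 9 whose groups did not overlap, against 3.59% of genes tested that had all periodontitis libraries below all controls. Its log2 fold change was -0.69 ± 0.27 (SE, limma unadjusted p = 0.0347, adjusted p = 1.0), and the exact permutation test of this gene gave p = 0.10, the smallest that 3 against 3 libraries can give. With a pseudocount of 0.1 the log2 fold change was -1.47 (unadjusted p = 0.0562, limma adjusted p = 1.0). Tpsab1 passed the filter on low values (at least 1 FPKM in at least 3 libraries) through the controls alone, so its place among the tested genes is itself tied to its being higher there. Its level in periodontitis 1 was 8.75% of the control mean, and in periodontitis 2 and 3 it was 50.7% and 52.0%.

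**Figure D1:**
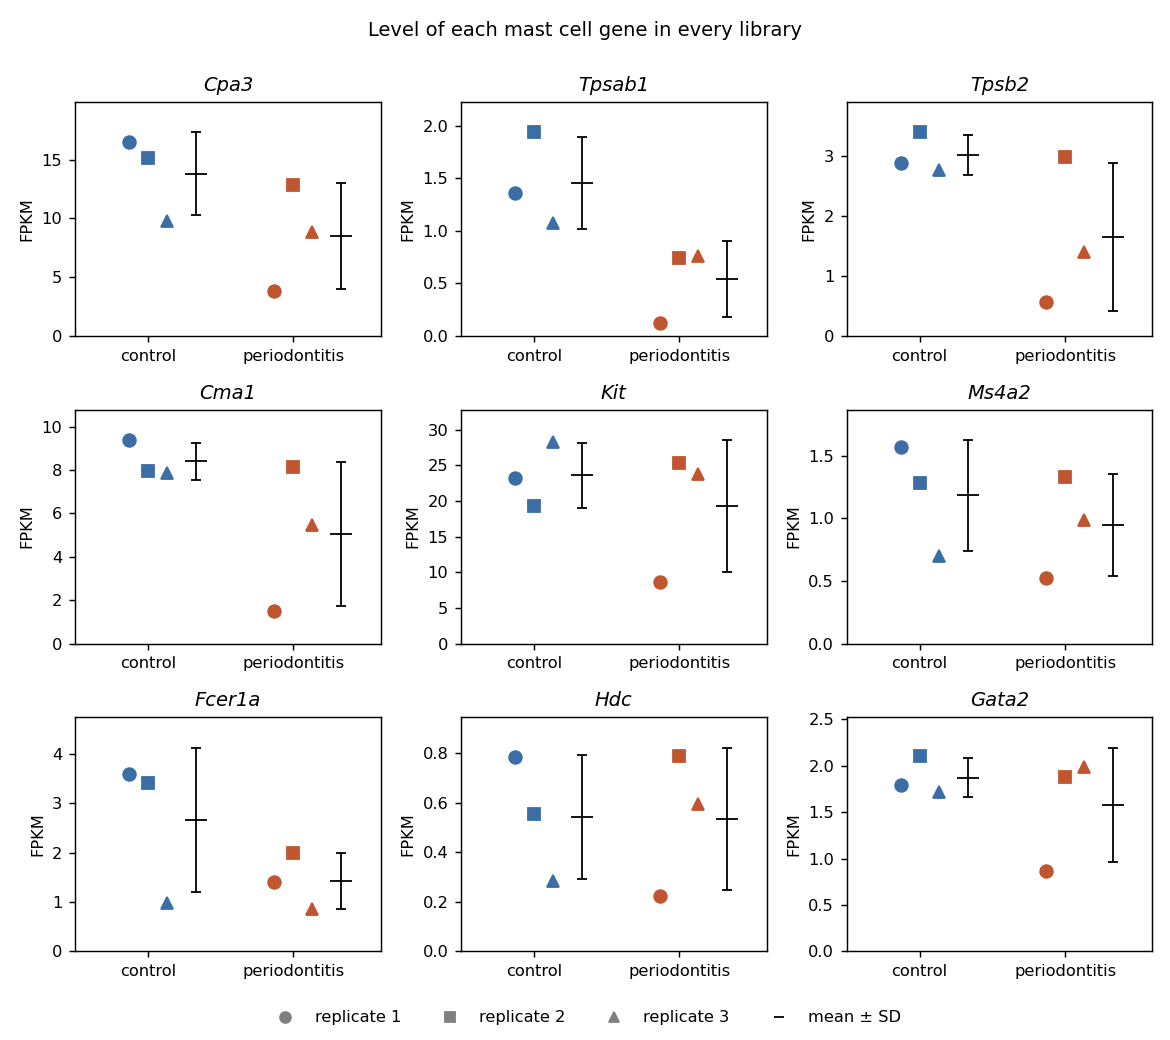
FPKM of each of the 9 genes in the 3 control (blue) and 3 periodontitis (orange) libraries, with symbols for replicates 1 to 3 and black bars for the mean ± SD of each group. Periodontitis 1 (orange circle) is the lowest library for every gene but Fcer1a, and the groups are apart for Tpsab1 only.

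The sequence before the start of the protease genes is shown because Gata2, itself one of the 9 genes, encodes a factor known to bind GATA. A link between such sites and the levels of these genes was not tested. Promoters of 8 of the 9 genes were matched by symbol in RefSeq (build GRCr8), and Ms4a2 was not. The 250 bases before each start were searched for GATAA on both strands. The stretches lie at chr2:104673238-104673487 (minus strand) for Cpa3, chr15:33390134-33390383 (minus) for Cma1, chr10:14867303-14867552 (minus) for Tpsab1 and chr10:14886060-14886309 (plus) for Tpsb2, in GRCr8. They are written 5′ to 3′ in the direction of the gene, and capitals mark GATAA or, for a match on the other strand, TTATC.
Cpa3: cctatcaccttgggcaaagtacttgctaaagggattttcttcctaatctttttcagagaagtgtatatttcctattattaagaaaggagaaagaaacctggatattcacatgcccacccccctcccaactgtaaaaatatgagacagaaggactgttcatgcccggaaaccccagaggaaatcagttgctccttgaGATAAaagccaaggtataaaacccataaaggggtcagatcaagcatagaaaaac
Cma1: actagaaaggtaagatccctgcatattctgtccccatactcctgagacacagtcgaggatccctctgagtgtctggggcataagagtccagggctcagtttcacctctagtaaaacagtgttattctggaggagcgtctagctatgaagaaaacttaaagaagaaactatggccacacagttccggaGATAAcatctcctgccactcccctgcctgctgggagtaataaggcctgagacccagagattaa
Tpsab1: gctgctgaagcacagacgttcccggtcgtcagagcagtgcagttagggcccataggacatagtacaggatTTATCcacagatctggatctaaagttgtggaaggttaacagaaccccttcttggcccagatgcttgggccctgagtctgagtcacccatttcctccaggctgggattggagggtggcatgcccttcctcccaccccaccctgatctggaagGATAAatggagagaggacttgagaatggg
Tpsb2: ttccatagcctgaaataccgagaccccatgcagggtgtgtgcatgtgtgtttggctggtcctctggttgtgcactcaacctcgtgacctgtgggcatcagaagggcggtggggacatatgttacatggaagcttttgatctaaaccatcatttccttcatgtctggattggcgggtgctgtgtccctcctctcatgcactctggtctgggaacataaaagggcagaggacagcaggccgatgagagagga

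Cpa3 and Cma1 each held 1 match on the forward strand, beginning 54 and 63 bases before the start. Tpsab1 held 2, beginning 180 and 29 bases before the start, and the Tpsb2 stretch held none. In all, 4 of the 8 promoters matched held GATAA, the fourth being that of Fcer1a, with 1 match on the other strand. Among 33469 rat promoters cut to the same length, 23.5% held it. The E-box pattern CANNTG, which factors of the Mitf type can bind, was found in 5 of the 8 and in 65.5% of all promoters. Its special case CATGTG, searched on both strands, was found in 3 of the 8 and in 12.1% of all promoters. A match says only that the letters are present.

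Each of the 3 receptor genes had overlapping groups. The mean FPKM of Kit and of Ms4a2 differed between the groups by less than the SD of either group. For Fcer1a the difference was below the control SD only. Kit and Ms4a2 were at control levels in periodontitis 2 and 3, and Fcer1a varied as much among controls as between groups. Kit encodes the receptor for stem cell factor, on which mast cell survival depends, and lies on chromosome 14 (35072108 to 35149610, minus strand). It had 23.2, 19.3 and 28.3 FPKM in controls 1 to 3 and 8.62, 25.4 and 23.8 FPKM in periodontitis 1 to 3. Only periodontitis 1 lay below the controls, at 36.5% of the control mean, whereas periodontitis 2 and 3 were at 108% and 101%. The log2 fold change was -0.40 ± 0.39 (SE, limma adjusted p = 1.0), and without periodontitis 1 it changed sign, to 0.074.

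Fcer1a encodes the IgE-binding alpha chain of the high-affinity IgE receptor and lies on chromosome 13 (91730925 to 91737053, minus strand). It had 3.61, 3.41 and 0.978 FPKM in controls 1 to 3 and 1.40, 1.996 and 0.861 FPKM in periodontitis 1 to 3. Control 3 lay among the periodontitis libraries, and periodontitis 3, not periodontitis 1, was the lowest. The log2 fold change was -0.53 ± 0.37 (SE, limma adjusted p = 1.0). It moved with the controls, to -0.92 without control 3 (unadjusted p = 0.0155, limma adjusted p = 1.0), -0.31 without control 1 and -0.35 without control 2. Over all settings tried, the adjusted p of Fcer1a ranged from 0.725 to 1.0.

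Ms4a2 encodes the beta chain of the same receptor, which amplifies its signal, and lies on chromosome 1 (227957302 to 227965386, minus strand). It had 1.57, 1.28 and 0.701 FPKM in controls 1 to 3 and 0.522, 1.33 and 0.990 FPKM in periodontitis 1 to 3. The groups overlapped, and the log2 fold change of -0.17 ± 0.26 (SE, limma adjusted p = 1.0) became 0.00115 without periodontitis 1.

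Hdc, histidine decarboxylase, makes histamine and lies on chromosome 3 (119057517 to 119075619, minus strand). It had 0.785, 0.556 and 0.284 FPKM in controls 1 to 3 and 0.224, 0.788 and 0.594 FPKM in periodontitis 1 to 3. No library reached 1 FPKM, so Hdc was below the filter. In the fit without a filter its log2 fold change was -0.01 ± 0.23 (SE, limma adjusted p = 1.0), and periodontitis 2 was the highest library.

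Gata2, a transcription factor needed for mast cell development, lies on chromosome 4 (120133713 to 120142488, plus strand). It had 1.79, 2.11 and 1.72 FPKM in controls 1 to 3 and 0.870, 1.87 and 1.99 FPKM in periodontitis 1 to 3. The controls were close to one another, periodontitis 2 and 3 lay among them, and periodontitis 1 was at 46.5% of their mean. The log2 fold change was -0.18 ± 0.24 (SE, limma adjusted p = 1.0), and 0.032 without periodontitis 1.

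**Figure D2:**
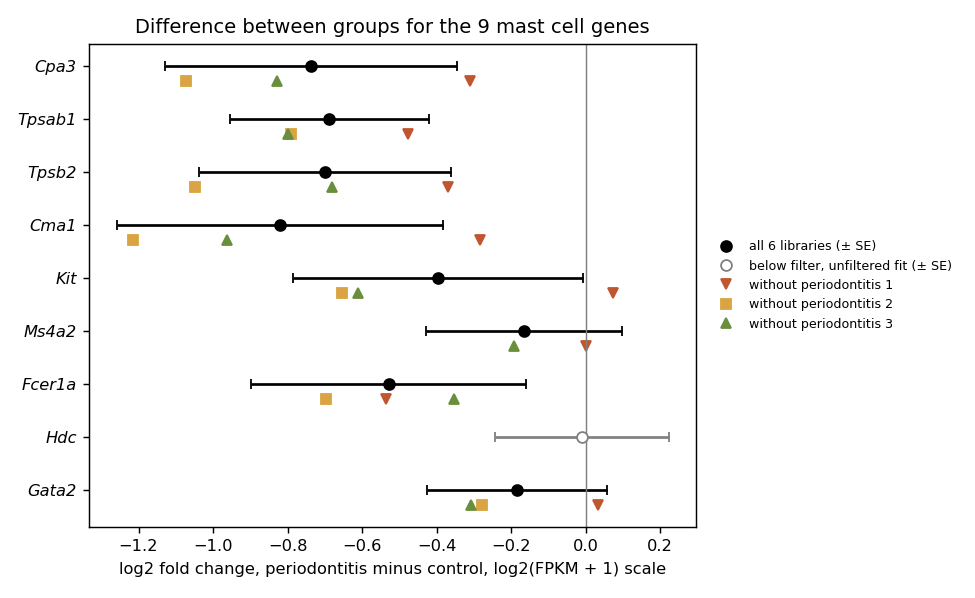
Log2 fold change (periodontitis minus control, log2(FPKM + 1) scale, x axis) of each of the 9 genes (y axis), as black points ± SE from limma with all 6 libraries, with Hdc in grey from the fit without a filter; coloured symbols are fits with 1 periodontitis library left out. All 9 points lie at or below 0 (-0.82 to -0.01), and without periodontitis 1 (inverted triangles) those of Kit, Ms4a2 and Gata2 lie at or just above 0 (0.074, 0.00115 and 0.032).

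The mean log2 value was lower in periodontitis for 9 of 9 genes, against 57.4% of genes tested. The 9 include Hdc, below the filter, and without a filter the share was 58.0%. The genes were chosen with earlier results of these data known, so the count is not independent support. The median log2 fold change over the 9 was -0.53, against -0.03 over genes tested. With quantile normalization the mean was lower for 8 of 9, against 45.0% of genes tested. After rescaling without the gland genes it was also lower for 8 of 9, against 50.2%. Without periodontitis 1 the mean was lower for 5 of 9, against 55.6% of genes tested in that fit, and the median was -0.28. In bulk tissue fewer mast cells and less of these RNAs per cell cannot be told apart.

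By library, the lowest values lay mostly in periodontitis 1. A library that stands apart and a disease effect that varies between libraries cannot be told apart here. Periodontitis 1 was the lowest of the 6 libraries for 8 of the 9 genes, against 34.7% of genes tested, and lay below all 3 controls for the same number, against 40.6%. In 5 of the 9, Cpa3, Tpsab1, Tpsb2, Cma1 and Kit, it lay at least 1 below the control mean on the log2(FPKM + 1) scale. The same held for 7.07% of genes tested. This scale understates changes of low genes. In FPKM, Hdc, Ms4a2, Gata2 and Fcer1a were at 41.4%, 44.2%, 46.5% and 52.6% of their control means in periodontitis 1. Periodontitis 3 lay below all 3 controls for 5 of the 9, which is near its share of 49.6% among genes tested. Periodontitis 2 did so for 1 of the 9, Tpsab1, against 12.8%, and lay within the control range for 7.

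In periodontitis 3 the proteases and the other genes differed in level relative to the controls. Cpa3, Tpsab1, Tpsb2 and Cma1 were at 64.3%, 52.0%, 46.6% and 65.1% of their control means there. Kit, Gata2 and Hdc were at 101%, 106% and 110%, and Ms4a2 was at 83.7%. Fcer1a, at 32.3%, was the exception among the receptors. In periodontitis 1 the proteases were at 8.75% to 27.6% of their control means and the other 5 genes at 36.5% to 52.6%. The summed FPKM of the 4 proteases was 30.1, 28.4 and 21.5 in controls 1 to 3 and 6.01, 24.7 and 16.5 in periodontitis 1 to 3, so periodontitis 2 lay within the control range.

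**Figure D3:**
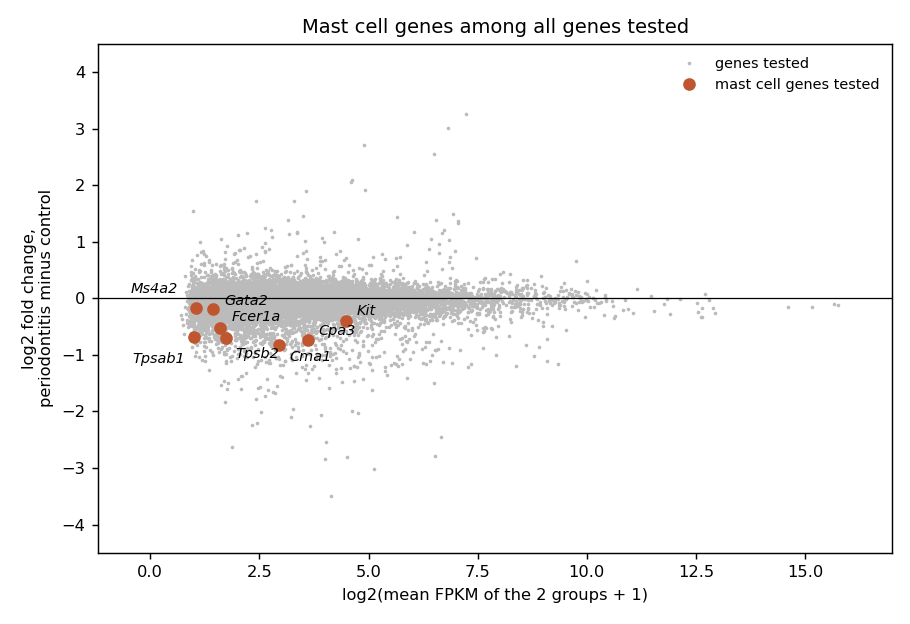
Log2 fold change (y axis) against log2 of the mean FPKM of both groups plus 1 (x axis) for the 13154 genes tested (grey), with the 8 mast cell genes tested in orange. The 8 lie below 0, from -0.82 to -0.17, at low to moderate levels.

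The ratios of these genes within a library varied over a smaller range than their levels did. The ratio of Tpsb2 to Cma1 was 0.306, 0.427 and 0.350 in controls 1 to 3 and 0.367, 0.366 and 0.256 in periodontitis 1 to 3, so only periodontitis 3 lay outside the control range. The ratio of Cpa3 to Cma1 was 1.76, 1.90 and 1.24 in the controls and 2.49, 1.57 and 1.62 in periodontitis 1 to 3, highest in periodontitis 1. The ratio of Tpsab1 to Tpsb2 was 0.475, 0.572 and 0.391 in the controls and 0.228, 0.248 and 0.542 in periodontitis, so periodontitis 1 and 2 lay below the control range. The ratio of Kit to Cpa3 was 1.41, 1.28 and 2.89 in the controls and 2.27, 1.98 and 2.69 in periodontitis, with all 3 periodontitis libraries inside the control range. These ratios do not depend on the scaling of a library. They were compared with no test.

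Mcpt1l1 gave the same order of libraries as Cpa3. It had 5.06, 25.8 and 12.9 FPKM in periodontitis 1 to 3, and its log2 fold change was -0.90 ± 0.52 (SE, limma adjusted p = 1.0). Periodontitis 1 and 3 lay below the lowest control (15.7 FPKM) and periodontitis 2 within the range. Mcpt8l2, of the Mcpt8 family, was listed at 0 in periodontitis 1 and had 1.63 and 1.26 FPKM in periodontitis 2 and 3, against 0.811 to 1.59 FPKM in the controls. Of the 19 other granule proteases looked for, 3 were listed and 2 tested. Both tested had a lower mean, with a median log2 fold change of -0.58.

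Genes for granule content and mediator synthesis were closer to control levels. Of 13 tested, 10 had a lower and 3 a higher mean, with a median of -0.26 against -0.03 over genes tested. Srgn, the proteoglycan core that holds proteases in the granule, had a control mean of 10.8 FPKM and a periodontitis mean of 8.68 FPKM. Hpgds, which makes prostaglandin D, had a log2 fold change of -0.40, and Alox5 and Alox5ap of the leukotriene pathway had -0.37 and -0.34. Slc18a2, the transporter that loads histamine into vesicles, was below the filter, with 1.02, 0.718 and 0.761 FPKM in controls 1 to 3. It was listed at 0 in periodontitis 1 and had 0.561 and 0.441 FPKM in periodontitis 2 and 3. The groups of Slc18a2 did not overlap. Vamp8, a membrane fusion protein of granules in many cell types, was the 1 tested gene of this list whose groups did not overlap (log2 fold change -0.26).

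In the signalling pathway of the IgE receptor, 11 of 14 tested genes had a lower and 3 a higher mean. Over all genes tested, 57.4% had a lower mean. The list median was -0.16. Fcer1g, the signalling gamma chain that many myeloid cells share, had 34.9, 23.3 and 22.0 FPKM in controls 1 to 3 and 17.7, 21.0 and 20.2 FPKM in periodontitis 1 to 3. Its groups did not overlap, and its log2 fold change was -0.40 ± 0.21 (SE, limma adjusted p = 1.0). The kinase gene Btk had -0.34, the phospholipase gene Plcg2 -0.22 and the phosphatase gene Inpp5d -0.28, all with overlapping groups.

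Genes for growth factors, cytokines and their receptors that act on mast cells had a list median of -0.19. Kitlg, the ligand of Kit, had 35.9, 29.8 and 44.9 FPKM in controls 1 to 3 and 25.9, 41.8 and 39.0 FPKM in periodontitis 1 to 3, and the groups overlapped (log2 fold change -0.06 ± 0.24, SE). It put the 6 libraries in the same order as Kit, with control 3 highest and periodontitis 1 lowest. Il33, an alarm cytokine of epithelium, had a log2 fold change of -0.19, also with overlapping groups. Il1rl1, which encodes the receptor for Il33, had 2.94, 3.32 and 2.43 FPKM in controls 1 to 3 and 0.270, 2.37 and 1.11 FPKM in periodontitis 1 to 3. All 3 periodontitis libraries lay below the controls, with periodontitis 2 close to control 3, and the log2 fold change was -0.90 ± 0.35 (SE, limma unadjusted p = 0.0364, adjusted p = 1.0). Tgfb1, a growth factor made by many cell types, had 12.8, 9.54 and 9.07 FPKM in controls 1 to 3 and 2.29, 9.55 and 7.09 FPKM in periodontitis 1 to 3. Periodontitis 1 and 3 lay below the controls and periodontitis 2 among them (log2 fold change -0.80 ± 0.41, SE, limma adjusted p = 1.0). Il3ra had a log2 fold change of -0.29. Of 7 tested genes in this list, 6 had a lower and 1 a higher mean, against 57.4% of genes tested with a lower mean.

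Among transcription factors used by mast cells, 10 of 10 tested had a lower mean (median -0.24), against 57.4% of genes tested. The list's median deviation from the control mean was -0.90, 0.06 and 0.01 in periodontitis 1 to 3. Spi1, which also drives other myeloid cells, had 4.10, 3.99 and 4.31 FPKM in controls 1 to 3 and 0.619, 3.82 and 2.61 FPKM in periodontitis 1 to 3, without overlap (log2 fold change -0.75 ± 0.38, SE, limma adjusted p = 1.0). Mitf, the melanocyte and mast cell factor, ranged from 0.722 to 3.32 FPKM in controls and from 0.523 to 2.80 FPKM in periodontitis. Zeb2 had a log2 fold change of -0.38, Lyl1 -0.54 and Ikzf1 -0.33, each with overlapping groups.

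Surface receptors and the targets of mast cell products were mixed. Of 5 tested surface receptors 4 had a lower mean and 1, P2rx7 (log2 fold change 0.12), a higher mean, with a list median of -0.10. Gpr34 had -0.69, Enpp3 -0.27 and Cd9, which surface epithelium also expresses, -0.10. F2rl1, a receptor that tryptase can activate, had 4.02, 3.71 and 4.08 FPKM in controls 1 to 3. It had 8.03, 5.03 and 3.73 FPKM in periodontitis 1 to 3. It was highest in periodontitis 1, where tryptase was lowest and surface epithelium genes were highest (median deviation 0.97), and no link was tested. Its groups overlapped (log2 fold change 0.37 ± 0.25, SE, limma adjusted p = 1.0). The list of this receptor and protease inhibitors had a median of -0.06 over 6 tested genes. Of the histamine receptor and breakdown genes 1 was tested, Maob, an amine oxidase, with a log2 fold change of -0.40 and groups that did not overlap.

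Most lists of other cell types were also lower in periodontitis 1. In periodontitis 1 the median deviation from the control mean was -1.02 for general leukocyte genes, -1.26 for macrophage, -1.33 for fibroblast and matrix, -1.28 for Schwann cell and -2.01 for skeletal muscle genes. The median over the 9 mast cell genes was -1.11 there. Endothelial genes were at -0.64, and surface epithelium was higher, at 0.97. These list medians are over the tested genes of each list; over the 8 tested mast cell genes the median was -1.22. In periodontitis 2 the mast cell median was -0.00528, beside 0.20 for general leukocyte, 0.07 for macrophage, -0.13 for fibroblast, -0.09 for Schwann cell, -0.13 for endothelial and -0.70 for skeletal muscle genes. In periodontitis 3 it was -0.47, beside -0.56 for general leukocyte, -0.34 for macrophage, -0.27 for fibroblast, -0.32 for Schwann cell, -0.39 for skeletal muscle and 0.10 for endothelial genes. The part of these other cell types in the lower mast cell values was not tested.

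Summed levels were as follows. Fibroblast and matrix genes (14 of 15 listed) summed to 1668 to 1772 FPKM in controls and to 701 to 1517 FPKM in periodontitis. General leukocyte genes (7 of 8 listed) summed to 92.2 to 130.2 FPKM in controls and 51.4 to 111.6 FPKM in periodontitis, and macrophage genes (11 of 12) to 356 to 576 and 216 to 440 FPKM. Skeletal muscle genes (16 of 19) summed to 4251 to 5979 and 1284 to 3804 FPKM, without overlap. Schwann cell genes (10 of 10) summed to 145 to 200.2 and 62.9 to 163 FPKM, and endothelial genes (10 of 11) to 87.1 to 97.8 and 58.0 to 98.4 FPKM. Surface epithelium genes (9 of 10) summed to 11337 to 14730 FPKM in controls and 7831 to 21968 FPKM in periodontitis. Dendritic and Langerhans cell genes (7 of 9), which bear on Fcer1a, summed to 311 to 409 and 152 to 335 FPKM. Basophil markers (2 of 9 listed), melanocyte markers (2 of 7) and eosinophil markers (1 of 7) were too few to describe those cells.

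**Figure D4:**
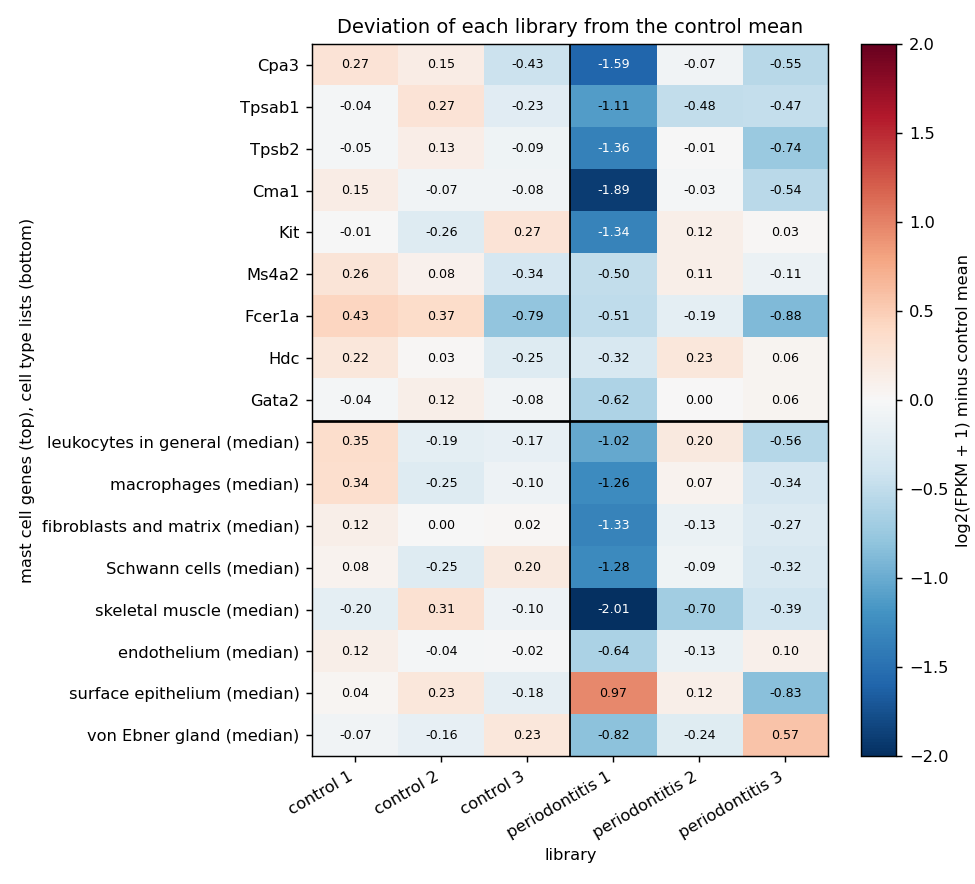
Deviation of each library (columns) from the control mean, in log2(FPKM + 1), for the 9 mast cell genes (rows above the line) and for the median of cell type lists (rows below it); blue is lower and red is higher. Periodontitis 1 is blue for all 9 genes (-1.89 to -0.32) and for 7 of the 8 lists shown, and red for surface epithelium (0.97), while periodontitis 2 is near 0 for most of the 9 genes.

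The genes most like Cpa3 across the 6 libraries were found by the root-mean-square difference between profiles, each profile being log2(FPKM + 1) minus the gene's own mean over the libraries. Over 13153 genes compared, the median difference was 0.64. The 10 nearest were Bgn (0.10), Prg4 (0.12), Chodl (0.12), Sgcb (0.13), Cadm3 (0.13), Dbp (0.14), C1r (0.14), Htra3 (0.14), NEWGENE_1308171 (0.15) and Bin2 (0.15). Bgn encodes the matrix proteoglycan biglycan and Prg4 the proteoglycan lubricin. C1r encodes a complement protease. Bgn had 80.2, 78.4 and 52.4 FPKM in controls 1 to 3 and 24.7, 65.0 and 41.1 FPKM in periodontitis 1 to 3, the order of libraries seen for Cpa3. Among the mast cell genes, Cma1 was the nearest to Cpa3 (0.21, rank 50), followed by Mcpt1l1, which is not one of the 9 (0.21, rank 54), Tpsb2 (0.23, rank 72) and Tpsab1 (0.31, rank 297). Ms4a2, Kit, Gata2 and Fcer1a had ranks 846, 948, 1146 and 2079.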

How the data were processed

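RNA was sequenced on an Illumina NovaSeq instrument, per the labels' protocols. FPKM values were deposited by the authors, 1 per protein-coding gene and library, per the file headers. The submitters' processing notes name cutadapt, FastQC, HISAT2 and StringTie without versions, and the mouse build mm10, whereas the deposited identifiers and chromosomes are those of rat. Positions of genes are therefore as deposited, with the rat build not given in the sources used here, and promoters are from RefSeq GRCr8. Counts and strand were not used here. Low values showed no whole-read steps (at most 3.42% of 117 low genes shared 1 ratio between libraries, rounded to 0.01 on the log2 scale), so no counts were recovered.

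Values were taken as log2(FPKM + 1) without further scaling. Genes that reached 1 FPKM in 3 or more libraries (13154 genes) entered limma 3.58.1 (R 4.3.3) with a mean-variance trend and group as the only term, with a two-sided test, p-values adjusted by Benjamini and Hochberg's method over all of these genes and a threshold of 0.05. The filter left out 1251 genes. Fold changes on this scale understate changes of low genes. The fit was tested on simulated data. In 10 simulated sets of this comparison, each of 13154 genes with 200 changed, 32.2% of 2-fold and 80.0% of 4-fold changes were recovered. The changed genes were drawn from those above 5 FPKM in controls, and the changes were added on the log2(FPKM + 1) scale with independent noise. These rates therefore do not cover Tpsb2, Tpsab1, Fcer1a, Ms4a2 and Gata2, which lay below that level, or a library that stands apart. Exact permutation tests used scipy 1.17.1. The 9 genes and the lists were chosen with earlier results of these data known. All 9 genes are described. From each list, up to 4 genes with the smallest p, those without overlap and a set of key genes could be named, and lists were described by counts and medians without a set test. Genes near Cpa3 were the 10 nearest by root-mean-square difference. Key genes Mcpt1, Mcpt4, Mcpt10, Hrh1, Hnmt, Pecam1 and Mlana were looked for by name, were not among the listed genes and so could not be described.

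Other settings tried were a fit with the replicate number as a block, fits that each dropped 1 library, a fit of unfiltered genes, a filter at a mean of 5 FPKM, a pseudocount of 0.1, quantile normalization, rescaling without 4 abundant gland genes, limma without the trend and a threshold of 0.1.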

Additional observations from a re-analysis of the deposited data

How the results depend on the processing

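Under every alternative run, 0 of the mast cell genes passed, and their smallest limma adjusted p was 0.591. With an adjusted p under 0.1 the count over all genes moved from 0 to 1, and with the replicate number as a block to 3. The block gave 0 mast cell genes and changed no call among them. Whether replicate numbers mark pairs could not be settled. For numbers 1 to 3, the deviations of the control and the periodontitis library from their group means had correlations of 0.09, 0.03 and 0.46. A library's best match had its own number for number 3 only. With 3 libraries per group, this check can neither show nor exclude pairs or a shared batch. Leaving out 1 library gave 0 to 1 genes, 1 without control 1. The 278 genes with an unadjusted p under 0.05 became 117 to 1011 with 1 library left out and 150 to 468 under the other settings. Among the mast cell genes, leaving out 1 library gave 1 to 4 with groups apart. There were 3 without control 3, against 7.14% of genes tested in that fit, and 4 without periodontitis 2, against 14.4%. A lower mean was found for 5 to 9 of 9 (5 without periodontitis 1, against 55.6% of genes tested). These counts cover all 9 genes, tested or not. The 3 without control 3 include Tpsab1, which was not tested in that fit. The median log2 fold change of the 9 ranged from -0.74 to -0.28, and from -0.74 to -0.41 under the other settings. With 1 library left out, the log2 fold change ranged from -0.65 (without periodontitis 2) to 0.074 for Kit, from -0.34 (without control 3) to 0.00115 for Ms4a2 and from -0.31 (without periodontitis 3) to 0.032 for Gata2, and the sign reversed in each without periodontitis 1. With quantile normalization the value of Ms4a2 was 0.010. Leaving out a library leaves fewer libraries in the fit, and the cause was not tested further. Cpa3, Tpsb2, Cma1 and Fcer1a kept a negative sign in each fit in which they were tested. Their ranges were -1.07 to -0.31, -1.09 to -0.37, -1.21 to -0.28 and -0.92 to -0.31. Tpsab1 ranged from -1.47 to -0.48. It passed the filter through the controls alone and was not tested when a control was dropped. Its sign in the filtered fits is therefore tied to the filter. Without periodontitis 2, 7 of the 9 were tested and 4 had a limma unadjusted p under 0.05. In that fit 641 of 12935 genes tested had such a p, of which 578 were lower in periodontitis. A mean of at least 5 FPKM left 3 of the 9 genes, Cpa3, Cma1 and Kit. Depth is unknown, so its limit on the low genes (Hdc, Ms4a2, Tpsab1) could not be given.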
